A study of Mus musculus with 39 samples.

Results

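Cluster 3 is the group of consensus peaks of RBPJ and Notch in which RBPJ calls from intermediate progenitor cells (IPCs) prevail, and it held 3384 of 20811 consensus peaks, or 16.3%. Members were chosen by the k-means cluster number that the authors wrote beside each consensus peak. That number was made from RBPJ and Notch binding intensities, which the files do not give, so values just inside and outside the cluster cannot be shown and binding is a description here, not a result. The series held 39 samples in all. All members lay on the nuclear chromosomes, none on Y and 45 on X. RBPJ and Notch were profiled by targeted DamID in the cortex of wild-type MF1 mouse embryos, electroporated at E13.5 and dissected at E14.5. Human RBPJ1 fused to Dam was driven by a Tα1 promoter in IPCs (3 samples) and by a Hes5 promoter in radial glial cells (RGCs, 3 samples). Notch was profiled in 4 samples of each cell type, with the mouse intracellular domain (NICD) in IPCs and with NICD or NΔECD, a Notch without its extracellular part, in RGCs. Dam alone was profiled in 4 IPC and 5 RGC samples, and within a cell type RBPJ and Notch shared these controls. All embryos therefore carried a Dam plasmid introduced by electroporation, the cell types are those in which the promoter is active, and peak positions offer no marker with which to check them. The files held 4 pooled peak lists and the consensus peaks, with no value of a single sample, so no spread between replicates and no sequencing depth could be read. Shares below carry Wilson 95% intervals, medians carry order-statistic intervals and word densities carry exact Poisson intervals, all of which cover counting error over peaks only.

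RBPJ is the DNA-binding partner of Notch. When a Notch receptor is cut, NICD enters the nucleus and joins RBPJ to activate genes such as those of the Hes and Hey families, and without NICD the same protein recruits corepressors. In the embryonic cortex Notch signalling keeps RGCs in a progenitor state, whereas IPCs, which arise from RGCs and divide to give neurons, express Eomes and Notch ligands. Dam methylates the adenine of GATC. In DamID, DpnI cuts at methylated GATC sites, adaptors are ligated, DpnII cuts pieces that still hold an unmethylated site, and the intact pieces that run from a methylated GATC to another are amplified, so every measured piece starts and ends at a GATC site. A GATC fragment below means the stretch of the mouse reference (GRCm38, mm10) between consecutive GATC sites.

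The sequences below are 200 bases around the midpoint of chosen members, read from the plus strand of GRCm38, outside annotated exons and printed 5′ to 3′. The first 3 were the windows with the most TTCCCA words, the core of the RBPJ binding motif, and capitals mark TTCCCA or its reverse complement.
Vps53 peak, chr11:76170309-76170508: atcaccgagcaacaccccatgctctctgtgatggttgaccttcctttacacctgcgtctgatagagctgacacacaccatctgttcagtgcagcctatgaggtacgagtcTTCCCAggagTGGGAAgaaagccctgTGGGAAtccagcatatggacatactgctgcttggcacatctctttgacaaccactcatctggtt
Msi2 peak, chr11:88696192-88696391: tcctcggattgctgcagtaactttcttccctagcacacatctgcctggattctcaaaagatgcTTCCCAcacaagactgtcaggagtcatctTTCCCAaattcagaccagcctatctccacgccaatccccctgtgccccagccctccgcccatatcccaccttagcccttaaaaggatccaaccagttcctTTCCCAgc
Ipo11 peak, chr13:106713612-106713811: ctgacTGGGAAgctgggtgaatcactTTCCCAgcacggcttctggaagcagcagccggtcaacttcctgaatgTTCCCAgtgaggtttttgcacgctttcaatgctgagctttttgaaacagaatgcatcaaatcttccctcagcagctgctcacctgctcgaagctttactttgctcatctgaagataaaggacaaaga
The Vps53 window lay in overlapping introns of Vps53 and Glod4, the Msi2 window in an intron of Msi2, which encodes an RNA-binding protein of progenitor cells, and the Ipo11 window 122 kb from the nearest start site. Each held 3 words. In all, 18.6% (17.3 to 19.9) of the members held TTCCCA on either strand in this window, against 21.4% of the other consensus peaks and 16.6% of all 200 bp tiles of the genome (18.2% of tiles weighted to the GC content of the members).

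The next pair held the most TAATTA words, the core recognised by many homeodomain proteins, marked in capitals.
AW209491 peak, chr13:15024262-15024461: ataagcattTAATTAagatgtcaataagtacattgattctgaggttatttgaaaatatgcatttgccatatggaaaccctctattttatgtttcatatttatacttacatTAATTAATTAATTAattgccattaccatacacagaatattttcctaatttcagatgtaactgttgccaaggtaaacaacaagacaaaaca
Cfap61 peak, chr2:146058945-146059144: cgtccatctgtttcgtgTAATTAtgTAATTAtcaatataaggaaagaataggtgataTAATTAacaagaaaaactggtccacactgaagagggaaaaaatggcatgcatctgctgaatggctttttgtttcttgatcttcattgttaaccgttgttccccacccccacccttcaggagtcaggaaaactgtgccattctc
TAATTA lay in the central 200 bp of 6.80% (6.0 to 7.69) of members, of 7.01% of the other consensus peaks and of 7.20% of genome tiles (4.47% with the weighting). The AW209491 peak had no GATC site and lay 393 kb from the start site of that gene. The Cfap61 peak, in an intron, held 2.

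Members without GATC that lay in the longest GATC fragments are shown next, because they mark the extreme of the pattern described below. They hold no TTCCCA and so no capitals.
Asmt peak, chrX:170815750-170815949: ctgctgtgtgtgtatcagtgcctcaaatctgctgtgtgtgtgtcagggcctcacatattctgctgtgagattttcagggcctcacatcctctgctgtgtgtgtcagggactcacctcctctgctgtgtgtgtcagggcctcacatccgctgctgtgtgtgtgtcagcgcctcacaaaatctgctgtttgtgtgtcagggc
Gm10719 peak, chr9:3018472-3018671: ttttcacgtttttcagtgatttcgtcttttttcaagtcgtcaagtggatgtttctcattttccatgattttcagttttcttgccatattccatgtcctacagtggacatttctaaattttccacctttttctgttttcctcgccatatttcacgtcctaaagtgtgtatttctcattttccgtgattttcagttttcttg
Gm10718 peak, chr9:3022062-3022261: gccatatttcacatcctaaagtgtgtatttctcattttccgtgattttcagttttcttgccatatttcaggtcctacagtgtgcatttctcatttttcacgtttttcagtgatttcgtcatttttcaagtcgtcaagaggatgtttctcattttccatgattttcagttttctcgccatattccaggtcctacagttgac
The Asmt peak lay in a fragment of 33570 bp and was 91.3% repeat-masked. The peaks at Gm10719 and Gm10718 lay in a single fragment of 25612 bp and were 92.1 and 93.8% masked. Such members were few: 31 of 3384 (0.916%, 0.646 to 1.30) were over 80% masked, against 0.867% of the other consensus peaks. Taken singly, the other clusters ranged from 0 to 3.36% in cluster 8, and 6 of the 7 were lower than cluster 3. Members without GATC stood at 1.44% and those with it at 0.364% (difference 1.08 percentage points, 0.446 to 1.78).

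The last 2 windows belong to members near genes of a list of IPC regulators. GATC is in capitals in the Penk window, and the Rhbdl3 window held no GATC.
Penk peak, chr4:4139924-4140123: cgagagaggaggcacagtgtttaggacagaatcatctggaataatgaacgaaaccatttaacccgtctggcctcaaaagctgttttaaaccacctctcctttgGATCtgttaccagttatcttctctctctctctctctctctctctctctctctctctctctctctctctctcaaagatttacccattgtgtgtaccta
Rhbdl3 peak, chr11:80315807-80316006: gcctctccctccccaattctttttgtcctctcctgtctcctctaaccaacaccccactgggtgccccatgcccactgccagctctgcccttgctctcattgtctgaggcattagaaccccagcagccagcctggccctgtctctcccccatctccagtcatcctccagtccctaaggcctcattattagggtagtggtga
The Penk and Rhbdl3 peaks began 0.925 and 1.99 kb upstream of a start site. The midpoint of the Rhbdl3 peak lay in an intron of Rhbdl3, so that start site lies inside the gene. Neither window held TTCCCA, whereas the whole peaks held 1 and 6 words.

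Cluster 3 peaks were short of GATC. Of the members, 1736 held no GATC site in their whole length, which was 51.3% (49.6 to 53.0), whereas in the other clusters the share lay between 0.412% in cluster 1 and 4.04% in cluster 2. The difference from all other consensus peaks together was 49.6 percentage points (47.9 to 51.3). A further 408 members held 1 site, 382 held 2 and 327 held 5 or more, whereas 68.7% of the other consensus peaks held 5 or more. Over the whole length of the members the density was 1.0 sites per kb (0.974 to 1.03), against 2.60 to 3.66 in the other clusters and 2.52 in the genome. In the central 300 bp, 19.4% (18.1 to 20.7) of members held a site, against 56.8 to 74.4% in the other clusters and 52.1% of genome tiles of this length weighted to the members' GC content. Over a wider stretch the gap was smaller: the 20 kb around a midpoint held a median of 45 GATC sites (44 to 45), compared with medians of 47 to 50 in the other clusters. On each autosome between 45.4 and 65.9% of the members had no site, and on X 44.4%.

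The share stood above that of the other clusters in every class of width. Members were the narrowest of the 8 clusters, with a median width of 1412 bp (1389 to 1442) against 1602 to 2415 bp, and widths ran from 269 to 6988 bp. Among members from 1000 to below 1500 bp, 55.4% (52.3 to 58.4, 574 of 1037) had no GATC site, against 0.641% (18 of 2810) of the other peaks of that width. From 2000 to below 3000 bp the share was 48.3% (44.3 to 52.3, 282 of 584) in cluster 3, whereas 0 of 4290 other peaks lacked a site, which allows a share of up to 0.0895%. Only below 500 bp did other peaks commonly lack a site, with 27.4% (24.5 to 30.6) against 39.5% (29.9 to 50.1) of the 86 members of that width. Of genome tiles of 1500 bp, 96.9% held GATC, with or without weighting to the members' GC content.

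The members without GATC sat inside long GATC fragments. This follows in part from their selection, because a peak without GATC must lie in a single fragment longer than itself. Their median enclosing fragment was 2178 bp (2130 to 2240), and the peak covered a median of 68.3% (67 to 69.3) of it. The peak edges lay a median of 275 and 265 bp from the flanking GATC sites on the left and right. Of the 1736, 1734 lay in fragments without unknown bases, and these occupied 1721 different fragments, of which 4 held more than 1 member. Adding 150 bp to each side of a peak left 22.8% (21.4 to 24.2) of all members without a site. The fragment around the midpoint had a median length of 1534 bp over all members, against 363 to 575 bp in the other clusters. In the genome the median fragment was 260 bp, and the fragment that held the median base was 691 bp.

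Counted from the side of the genome, cluster 3 took up more of the fragments the longer they were. The shares are per fragment and not per base, so a longer fragment has more room for a midpoint. Fragments from 500 to below 1000 bp numbered 1303291, and 664 of them (0.0509%) held the midpoint of a member. The share was 0.225% (0.212 to 0.238) from 1000 bp, 1.52% (1.41 to 1.62) from 2000 bp, 4.64% (4.15 to 5.18) from 3000 to below 5000 bp and 12.1% (7.78 to 18.3) of the 149 fragments of 5000 bp or more. The other consensus peaks went the opposite way from 500 bp on, with 0.462, 0.25, 0.108 and 0.0465% in the first 4 of these classes and none in the longest. Fragments of 2000 bp or more made up 5.53% of the sequence, and 1200 consensus peaks had their midpoint in one. Of these 1140, or 95%, were members of cluster 3, and of the remaining 60 peaks 34 held a called IPC RBPJ peak. What part the lengths of the fragments played in the calling of these peaks was not tested.

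**Figure D1:**
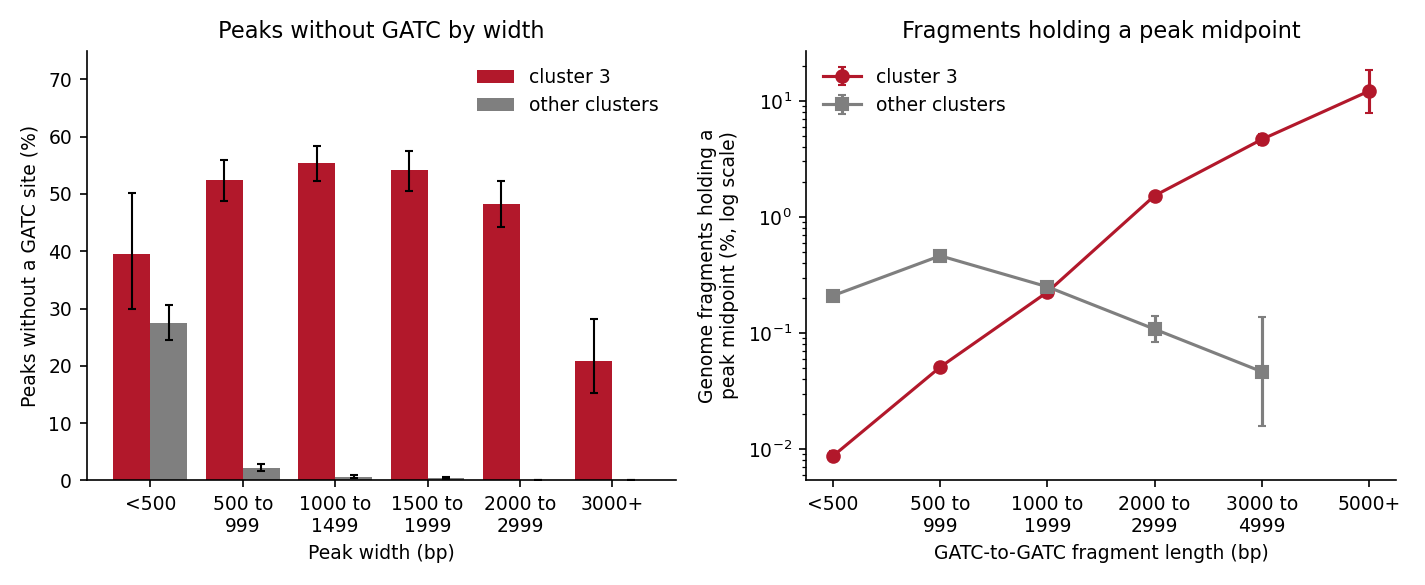
GATC and cluster 3. Left, percentage of peaks without a GATC site by peak width for cluster 3 and for all other clusters, with Wilson 95% intervals. Right, percentage of genome GATC fragments (log scale) that held a peak midpoint, by fragment length, with Wilson 95% intervals and no point where the count was 0. The cluster 3 line climbs to 12.1% of fragments of 5000 bp or more. The line of the other clusters rises from 0.21% below 500 bp to 0.462% and then falls to 0.0465%.

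The calls of each list that the members held are given next. Of the members, 3272 (96.7%) held a called peak of the IPC RBPJ list, against 26.2% of all consensus peaks, and 3174 (93.8%) held a peak of that list and of no other, against 18.3%. An RGC RBPJ call was found in 121 members (3.58%, against 67.6%), an RGC Notch call in 23 (0.680%, against 17.7%) and an IPC Notch call in 73 (2.16%, against 10.1%). The cluster number was made from the same binding data, so nothing is read from these counts. No IPC RBPJ call was present in 112 members, of which 57 held an RGC RBPJ call alone, 42 an IPC Notch call alone and 10 an RGC Notch call alone. Combinations were rare, with 59 members called for RBPJ in both cell types, 27 called for RBPJ and Notch in IPCs and 4 called in 3 lists.

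GATC was missing from 54.3% (52.5 to 56.0) of the 3174 members called for IPC RBPJ alone, from 23.8% (10 peaks) of the 42 called for IPC Notch alone, and from 0 of the 121 with an RGC RBPJ call, which allows up to 3.08%. Peaks called for IPC RBPJ alone were also found outside cluster 3, where 52 of 636 (8.18%, 6.29 to 10.6) had no GATC site. The difference between these sets with the same call was 46.1 percentage points (43.2 to 48.7). Of all 3810 peaks called for IPC RBPJ alone, 83.3% were placed in cluster 3 and 13.0% in cluster 7. Those outside cluster 3 were close to it in width, with medians of 1346 bp (1264 to 1426) against 1394 bp (1370 to 1417), but 24.4% covered a start site, against 9.01% of those inside (difference −15.4 percentage points, −19.0 to −12.0).

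**Figure D2:**
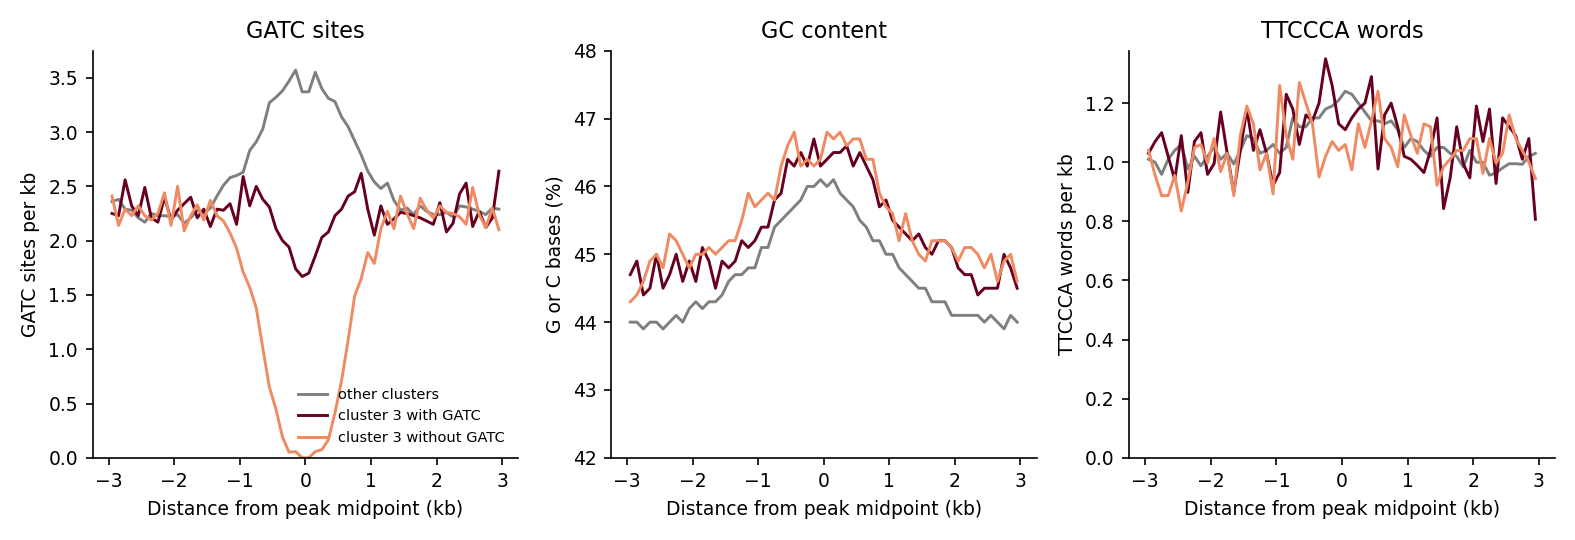
Sequence around peak midpoints in 100 bp bins out to 3 kb for cluster 3 peaks with GATC (1648), cluster 3 peaks without GATC (1736) and all other clusters (17425). From left to right the panels give GATC sites per kb, the percentage of G or C bases (axis from 42 to 48%) and TTCCCA words per kb. By their selection the members without GATC stand at 0 at the centre. GATC dips to 1.67 per kb in the other members and stands at 3.37 per kb beside the midpoint in the other clusters. The sets lie between 2.25 and 2.41 per kb at 3 kb on the left.

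Even the 1648 members with a GATC site had fewer sites at the midpoint than in their surroundings. In the 100 bp on either side of the midpoint they held 1.67 and 1.70 sites per kb, against 2.25 at 3 kb upstream in genome order, whereas the other clusters rose to 3.37 from 2.36. Their density over the whole peak was 1.97 per kb (1.91 to 2.02), below each of the other clusters. Their enclosing fragment had a median of 806 bp (774 to 839), again longer than the 363 to 575 bp of the other clusters.

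In base composition the members lay within the range of the other clusters. Median GC content was 46.3% (46.1 to 46.6), between 41.3% in cluster 8 and 48.4% in cluster 7, the cluster with the next most IPC RBPJ calls (1212), and 41.7% in the genome. With and without GATC the members had medians of 46.3 and 46.4%. The median repeat-masked share was 13.9%, compared with 12.9 to 19.3% in the other clusters and 36.4% of the genome. CpG dinucleotides were at 0.214 (0.209 to 0.218) of the number that base composition gives, between 0.176 in cluster 8 and 0.318 in cluster 7. GGGCGG, a word of CpG-rich promoters, reached 0.295 per kb (0.280 to 0.310), against 0.0998 in cluster 8 and 0.738 in cluster 7.

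TTCCCA stood at 1.15 words per kb (1.12 to 1.18), within the range of 0.998 to 1.33 of the other clusters, of which 3 were lower. In the central 300 bp it stood at 1.07 per kb (1.01 to 1.14) in cluster 3, below its density over whole peaks, against 1.21 (1.18 to 1.24) in the other clusters together and 1.47 (1.38 to 1.57) in cluster 7. A TTCCCA word was found in the central 300 bp of 26.7% (25.3 to 28.3) of members, a difference of −3.73 percentage points from the other peaks (−5.35 to −2.07) and −8.95 from cluster 7 (−11.4 to −6.49). Genome tiles of 300 bp held it in 24.1%, or 26.0% weighted to the members' GC content. Members with and without GATC held it in 27.7 and 25.8% of central windows, a difference of −1.92 percentage points that included 0 (−4.91 to 1.06). TAATTA stood at 0.335 per kb (0.320 to 0.351), against 0.322 to 0.442 in the other clusters.

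CATCTG and CAGCTG, E-box words of the kind bound by basic helix-loop-helix proteins such as Neurog2 and Neurod1, were denser in cluster 3 than in any other cluster. CATCTG, read on both strands, reached 0.960 per kb (0.933 to 0.987), against 0.751 to 0.852 in the other clusters and 0.835 in the genome. It was present in the central 300 bp of 25% (23.6 to 26.5) of members and of 20.2% of the other peaks, a difference of 4.83 percentage points (3.28 to 6.43). CAGCTG, a palindrome, reached 0.614 per kb (0.593 to 0.635), against 0.402 to 0.573, and its share of central windows was 16.6% against 14.1% (difference 2.57, 1.25 to 3.96). Of 300 bp genome tiles, 14.3% held CAGCTG after weighting to the members' GC content. Against cluster 7 the share of windows with CATCTG was 5.03 points higher (2.82 to 7.21), whereas that with CAGCTG differed by 0.735 (−1.24 to 2.67). In a count of all 2010 words of 6 bases without GATC and with at least 300 occurrences at the rate of the other clusters, weighted to GC content, CATCTG ranked 24 and CAGCTG 76, with ratios of 1.19 and 1.14, and TTCCCA ranked 1187 with 0.975. Among the members with GATC the first of 1792 words was CATATG, another E-box word, with a ratio of 1.27. It was followed at rank 2 by CATCTG with 1.26. Among the members without GATC the latter ranked 294 of 1783 with 1.12. A word match is a description of the sequence and names no bound factor.

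The word that ranked first in the whole cluster was ACAGCA, with a ratio of 1.36 and 6593 occurrences. Among the members without GATC it ranked 2 with a ratio of 1.58. It occurred 3761 times in 1264 of these 1736 peaks (72.8%), and 20 peaks held 1200 of the occurrences (31.9%). Its density in the members without GATC fell from 1.47 to 1.02 per kb without those 20 peaks, against 0.936 in the other clusters. The 50 lowest words of the whole cluster all held a CpG.

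Cluster 3 peaks were mostly away from start sites. Distance was taken from the nearest edge of the peak to the nearest start of any transcript of a protein-coding gene in GENCODE. Its median was 23.3 kb (21.2 to 25.2), between 8.58 kb in cluster 7 and 43.2 kb in cluster 8, and near the 20.6 kb (19.7 to 21.6) of all other clusters together. A start site was covered by 320 members, or 9.46%, against 17.9% of the other peaks, 29.7% in cluster 7 and 3.86% in cluster 8. The difference was −8.47 percentage points (−9.58 to −7.30) from the other peaks and −20.2 (−22.3 to −18.1) from cluster 7. Members lay downstream of the nearest start site in 1725 cases (51.0%) and upstream in 1339 (39.6%). At the other extreme 764 members (22.6%) lay over 100 kb away, against 22.7% of the other peaks (difference −0.166, −1.68 to 1.4).

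**Figure D3:**
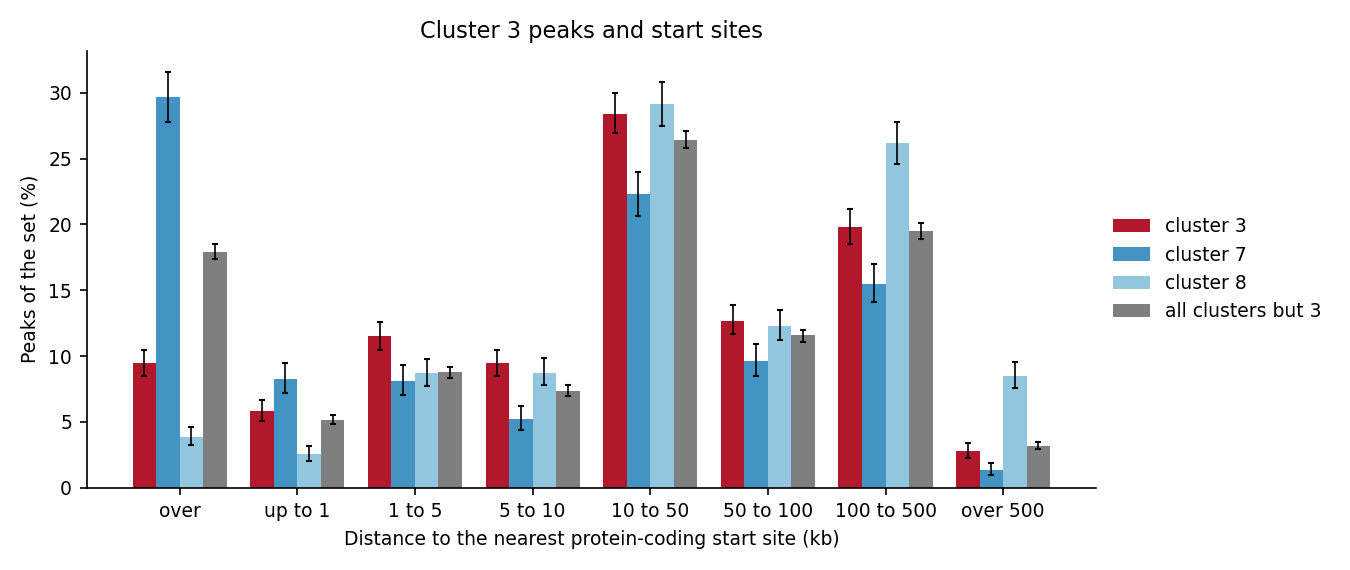
Percentage of peaks in each class of distance to the nearest protein-coding start site for cluster 3, cluster 7, cluster 8 and all clusters but 3, with Wilson 95% intervals. Cluster 3 had 9.46% of peaks over a start site, below cluster 7 (29.7%) and above cluster 8 (3.86%), and its most filled class was 10 to 50 kb (28.4%).

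Midpoints of 50.3% (48.6 to 51.9) of members lay in introns of protein-coding genes, 7.42% in exons, 13.7% within 5 kb upstream of a start site and 38.3% in neither genes nor these upstream stretches, and a midpoint could count in more than 1 class. Introns held 3.55 percentage points more of them than of the other peaks (1.71 to 5.38). Members without GATC were less often over a start site than those with it, at 7.49 and 11.5% (difference −4.04, −6.04 to −2.07), and slightly more often had their midpoint in an exon (8.64 and 6.13%, difference 2.51, 0.747 to 4.28). Intron shares of 49.9 and 50.6% differed by less than the interval (−4.03 to 2.70), and median distances were 22.9 and 23.5 kb.

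Members were dispersed along the chromosomes. The median gap to the next member was 166 kb (160 to 176), and 6.15% (5.39 to 7.01) lay within 10 kb of another, inside the range of 2.13 to 8.12% that the other clusters showed among themselves. At gaps of up to 10 kb, 3176 members stood alone, 89 pairs and 5 groups of 3 formed, and 2 groups were larger. The largest was a run of 11 peaks over 23.5 kb at chr9:3015078-3038546, near Gm10720 to Gm10715, none of which held GATC. It included the Gm10719 and Gm10718 peaks shown above, which lay in a single fragment of 25612 bp and were 92.1 and 93.8% repeat-masked. The other larger group held 4 peaks on chrX whose nearest start site was that of Asmt, 142 kb from the Asmt peak shown above. A group of 3, all with GATC, spanned 13.9 kb at chr13:28709433-28723369, from 230 to 243 kb downstream of Sox4. The consensus peak nearest to a member was itself a member in 20.8% (19.5 to 22.2) of cases and of cluster 5 in 22.9%. For the peaks of the other clusters it was a member in 11.9 to 16.7%, and of all consensus peaks 16.3% were members. How often a peak of another cluster lay nearest to one of its own cluster is not given here. Between 14.3 and 18.2% of the consensus peaks of each autosome belonged to cluster 3, and 11.1% (45 of 407) of those on X.

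Taken by the nearest start site, the members belonged to 2549 of the 8492 genes that had any consensus peak. Most genes had few: 1998 (78.4%) had 1 member, 384 had 2 and 167 had 3 or more. For 849 genes every consensus peak was a member, and no such count for another cluster is given beside it. The 5 genes with the most members had 13 to 33 consensus peaks each. Nav2, which encodes a cytoskeletal protein of growing axons, had 10 of its 22 consensus peaks in the cluster, 5 of them without GATC, and all 10 midpoints lay within the gene, 9 in introns. Of these, 6 are counted as upstream because they lie before a start site inside the gene. Adgrl2, an adhesion receptor of synapses, had 8 of 33. Bcl11a and Nfib, transcription factors of cortical neurons, had 7 of 19 and 7 of 29, and Ebf1, another transcription factor, had 7 of 13.

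Genes with 6 members were Cdh4, Chd7, Myt1l, Pard3b, Slc39a11, Camta1 and Sox4. They differed in GATC. All 6 members of Pard3b, a polarity gene, lay in its introns from 9.94 to 397 kb downstream of a start site and held no GATC, in fragments of 1075 to 2964 bp. None of the 6 at Myt1l, a neuronal transcription factor, lacked a site, and 1 of them covered a start site over 5017 bp (chr12:29532063-29537079). At Slc39a11, a zinc transporter gene, 5 of 6 held GATC, and at Camta1 2 of 6.

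**Figure D4:**
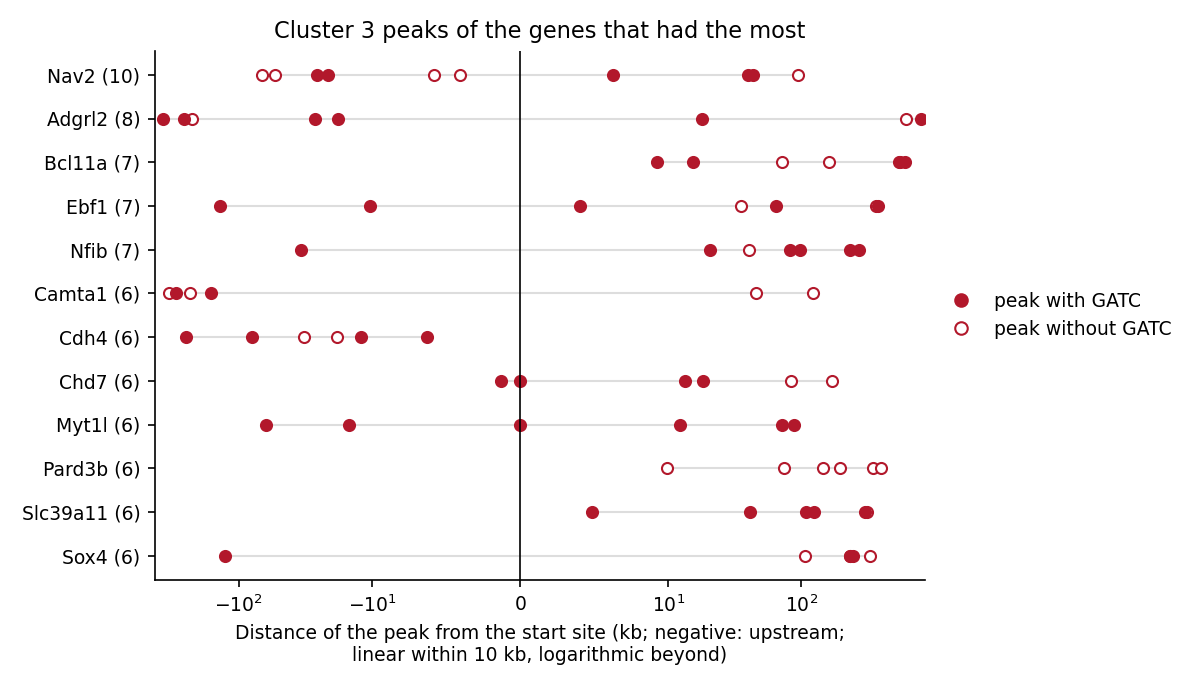
Cluster 3 peaks of the 12 genes that had 6 or more of them, placed by distance from the start site nearest to each peak (negative upstream, linear within 10 kb and logarithmic beyond). Each circle is 1 peak, filled where it held GATC and open where it did not, and the number after a gene is its count of cluster 3 peaks. Pard3b has open circles only, Myt1l filled ones only, and the open circle of Slc39a11 at 310 kb lies behind a filled one at 300 kb.

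The intervals of the 3 lists of Notch signalling genes all included the share of all consensus peaks. Of the canonical Notch targets, 10 genes, 33 consensus peaks lay nearest to them and 2 were members (6.06%, 1.68 to 19.6), against 16.3% of all consensus peaks. One was 8.69 kb upstream of Nrarp, a feedback inhibitor of Notch, at chr2:25168864-25172070. It was 3207 bp wide, held 9 TTCCCA words and 10 GATC sites, and was called for RBPJ in both cell types. The other was 35.0 kb downstream of Hey1, a transcriptional repressor, and held 2 TTCCCA words and no GATC in 837 bp. None of the 12 consensus peaks of Hes1, the 3 of Hes5 or the 6 of Nepro was a member, and Hes7, Hey2, Heyl and Dtx1 had 1, 1, 2 and 1 consensus peaks outside the cluster.

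Receptors and ligands of Notch had 8 members of 39 consensus peaks (20.5%, 10.8 to 35.5), 5 of them without GATC. Notch1 had 2, both without GATC and called for IPC RBPJ alone. The first lay 0.271 kb upstream of a start site inside the gene, with its midpoint in an exon (chr2:26470769-26473553), in a fragment of 3655 bp. The second lay in an intron. Notch3 had a member in an intron, 2.27 kb downstream, with 5 TTCCCA words and no GATC in 1595 bp. Notch4 had 1 of 2, 7.25 kb upstream and without GATC. The only consensus peak of Dll3, a ligand of IPCs that acts within the cell, was a member over its start site (chr7:28300036-28302565) with 5 TTCCCA words and 5 GATC sites. Notch modulators and cofactors had 7 of 51 (13.7%, 6.81 to 25.7), 1 at each of 7 genes, among them Ncstn, a subunit of γ-secretase, L3mbtl3, which acts in repression, and Maml2, a coactivator. Of these 7 members 6 had no GATC.

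IPC regulators had 11 members of 44 consensus peaks (25%, 14.6 to 39.4), at 9 of the 18 genes, and 3 of the 11 lacked GATC. The interval included the 16.3% of all consensus peaks. Eomes, the transcription factor that marks IPCs, had 3 of its 6 consensus peaks in the cluster. These lay 6.73 kb downstream (chr9:118485592-118489163, 3572 bp, 3 TTCCCA words, 4 GATC sites) and 75.7 and 139 kb upstream, and the one at 75.7 kb had no GATC in 1294 bp. At Neurod1, a proneural factor gene, the single consensus peak was a member, over the start site (chr2:79454850-79457389, 5 GATC sites). Mfng, which modifies Notch receptors, and Sstr2, a somatostatin receptor, also had a member as their single consensus peak, that of Sstr2 in an intron of Slc39a11. Rhbdl3 had 1 of 5, called for RBPJ and Notch in IPCs, Penk had 1 of 2, Elavl2, an RNA-binding protein gene of neurons, 1 of 4 at 167 kb, and Gadd45g, induced on leaving the cell cycle, 1 of 5 at 97.8 kb. None of the 4 consensus peaks of Neurog2, the 2 of Neurog1, the 2 of Btg2, the 4 of Tfap2c or the 3 of Dll1 was a member. Insm1, Neurod4 and Hes6 had no consensus peak.

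Radial glia markers had 12 members of 173 consensus peaks (6.94%, 4.01 to 11.7), against 16.3% of all consensus peaks. Id4, an inhibitor of proneural factors, had 3 of 22. One of them covered its start site and was called for RGC RBPJ alone, and the other 2 were called for IPC RBPJ alone. Prdm16 had 2 of 19, both in introns and without GATC. The member at Hopx covered a start site, held 12 GATC sites and was called for Notch in both cell types and not for RBPJ. Mfge8 had 1 of 2, 1.5 kb downstream.

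Projection neuron factors had 57 members of 282 consensus peaks (20.2%, 15.9 to 25.3), at 19 of 25 genes, led by Bcl11a, Nfib, Myt1l and Sox4. This interval also included the 16.3% of all consensus peaks. GATC was missing from 17 of the 57 (29.8%). The 7 members of Bcl11a, named above, all lay downstream of a start site, from 9.26 to 597 kb, and 2 had no GATC. At Nfib, 6 of 7 lay downstream and 3 were also called for RGC RBPJ. At Sox4, 5 of 6 lay 106 to 325 kb downstream, outside genes.

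Among the lists of channel, receptor, adhesion and guidance genes, the interval of the list named voltage-gated channels lay above the share of all consensus peaks. The intervals of the other 4 included it. The list named voltage-gated channels had 52 of 228 (22.8%, 17.8 to 28.7), with 26 of the 52 lacking GATC. It also held potassium channel genes not gated by voltage, such as Kcnn3 and Kcnj2, and genes of channel-binding proteins such as Kcnip1. Kcna4, a potassium channel gene, had 3, all without GATC and all downstream. Kcnh5 had both of its consensus peaks in the cluster, 1 of them over the start site, Kcnh1 had 2 and Kcnn3 had 3. Axon guidance genes had 63 of 368 (17.1%, 13.6 to 21.3), with 5 of 13 at Robo2, all with GATC, 4 of 13 at Epha3, 4 of 19 at Efnb2 and 3 of 16 at Robo1. Synaptic adhesion genes had 47 of 300 (15.7%, 12 to 20.2), with 5 at Tenm3, 5 at Tenm4 and 3 at Nrxn2 beside those of Adgrl2. Cadherins and protocadherins had 33 of 195 (16.9%), with 6 at Cdh4, 4 at Cdh8, 4 at Cdh23 and 3 at Cdh13. Glutamate and GABA receptors had 17 of 98 (17.3%), 11 without GATC. Gria2, Grin2a and Gabbr2 had 2 members each.

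The intervals of the remaining 5 lists all included the share of all consensus peaks. The list of neuronal cytoskeleton and RNA-binding genes, which also held the adhesion gene Ncam1, had 15 of 118 (12.7%). Among them were 3 at Nova1 and 2 each at Celf2, Ncam1 and Rbfox1. Cell cycle regulators had 4 of 36 (11.1%), 3 of them 58.9 to 376 kb upstream of Mki67 and 1 in an intron of Cdk6. Ribosomal protein genes had 6 of 47 (12.8%), 4 at 222 to 265 kb from Rpl38 and 2 at 78.3 and 434 kb from Rps24. Hox genes had 2 of 6 (33.3%, 9.68 to 70), at Hoxb8 and Hoxd1. Olfactory and vomeronasal receptor genes had 12 of 89, 10 of them without GATC, with 1 each at Olfr366, over its start site, Vmn1r2, Vmn1r238 and Vmn2r7.

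**Figure D5:**
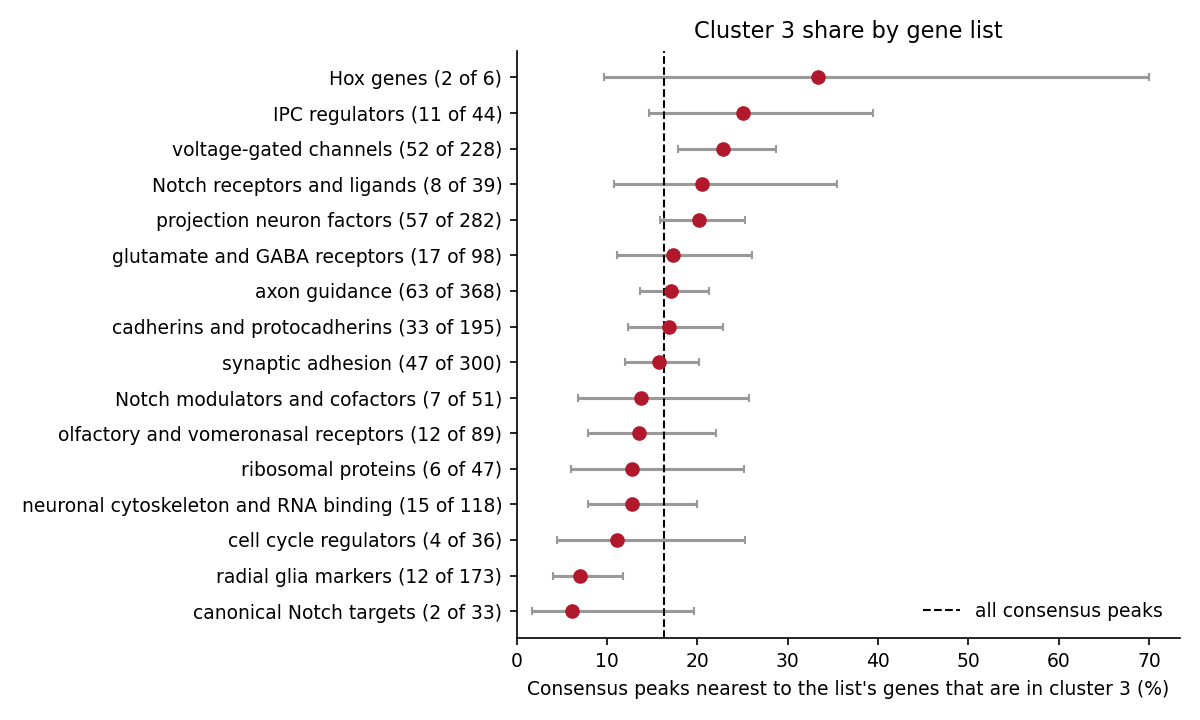
Share of the consensus peaks nearest to the genes of each of 16 lists that belonged to cluster 3, with Wilson 95% intervals and the counts after each name. The dashed line is the share over all consensus peaks. The list named voltage-gated channels, which also held other channel genes, lies wholly above the line (17.8 to 28.7%). Radial glia markers (4.01 to 11.7%) lie wholly below it, while the intervals of the other 14 lists reach it.

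Peaks near the same gene are not independent, the lists were chosen with earlier results of these data known, and no difference between lists was tested. The 4 members called in 3 lists lay over the start site of Caprin2, 8.20 kb downstream of a start site of Carmil1, 68.2 kb upstream at Glis3 and 456 kb upstream of Plxna2. Their calls joined RBPJ in both cell types with IPC Notch at Caprin2 and Carmil1, RBPJ in both with RGC Notch at Glis3, and IPC RBPJ with Notch in both at Plxna2. All 4 held GATC, from 2 to 11 sites.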

How the data were processed

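Targeted DamID libraries of embryonic mouse cortex were analysed from deposited peak positions. The authors used mm10 and MACS2 per the submitters' processing notes. Each fusion sample was paired with each Dam-only sample for broad peak calling, and peaks passing an FDR limit in every pair were retained. They merged overlapping peaks of 4 lists and assigned k-means clusters. The deposited values are positions in bp, with no heights and 0 columns of single samples, so depth is unknown and no test over samples could be made.

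Positions were read on GRCm38 (RefSeq sequence, GENCODE vM21 annotation) and printed counted from 1. Python 3.11.15, numpy 2.4.6, pandas 2.3.3 and scipy 1.17.1 were used. Midpoints gave the genomic feature, words were counted on both strands, and 2 mitochondrial consensus peaks, not members, were left out. Differences of shares have Newcombe intervals. No p-value was computed. The column of list names matched the 4 lists at all 20809 nuclear peaks. Counting and placing were tested on simulated data. Members, lists and the rule for naming genes were chosen with earlier results of these data known. The text names the 10 genes with the most members and those tied with the tenth, up to 4 per list, all canonical Notch targets and IPC regulators, and genes of members called in 3 lists. A few items that this rule names are not reported here. Sequence windows were chosen by word count, fragment length or nearness to IPC regulators, passing over exons and chromosome 18. Alternatives were other annotations, distances, widths, words, windows and membership by calls.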

Additional observations from a re-analysis of the deposited data

How the results depend on the processing

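Of 31 alternatives, 17 left their value within the interval of the value reported, or a count within 1.5 times. Taking as members the 3810 peaks called for IPC RBPJ alone (3174 of them in cluster 3) gave 46.6% without GATC, 11.6% over a start site, 46.7% GC and 7.06% within 10 kb of another. With 150 bp added on each side, 22.8% lacked GATC and 10.7% covered a start site. With all annotated genes, the median distance was 9.68 kb, 12.2% covered a start site and 55.6% of midpoints lay in introns. In the central 300 bp TTCCCA stood at 1.07 and TAATTA at 0.373 per kb, and the word of 7 bases, TTCCCAC, at 0.269 per kb. Within 5 and 20 kb of another member lay 3.46 and 11.1%. No paired analysis was possible because the lists pool the samples of a condition, and no sample could be left out. Intervals cover counting error over peaks only, neighbouring peaks are not independent, and what sequencing depth limits cannot be read from positions.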
